A study of Homo sapiens with 6 samples.

Results

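The amino acid transporter genes described here are the 40 genes of the solute carrier families SLC1, SLC3, SLC7, SLC36, SLC38 and SLC43 among the 62700 human genes of the deposited table, chosen by gene symbol with pseudogenes left out. The study sequenced mRNA of the lung adenocarcinoma cell line A549, which is epithelial and long established, in 2 groups with 3 libraries each. Cells labelled sgControl hold a control guide RNA and have the genotype label WT. Cells labelled sgH2AC19 hold a guide against H2AC19, a replication-dependent histone H2A gene, and are labelled as knockout derivatives of the same line. Both groups were grown in the same serum-containing medium, and whether the knockout cells are a clone or a pool is not given in the sources used here. The series title places the target in angiogenesis and tumour progression, and the comparison of interest is sgH2AC19 against sgControl.

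These carriers set which amino acids a cell takes up, exchanges or releases. SLC1 carriers use the sodium gradient to bring in glutamate or to exchange small neutral amino acids such as glutamine. SLC7 carriers fall into cationic carriers that work alone and light chains that reach the membrane only with a heavy chain of the SLC3 family. SLC38 holds the sodium-coupled glutamine carriers of systems A and N together with lysosomal members, SLC36 holds proton-coupled carriers, and SLC43 holds sodium-independent carriers of large neutral amino acids. Tumour cells are known for high levels of the leucine exchanger SLC7A5 and the cystine importer SLC7A11.

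The libraries held 35681162 to 45738439 reads, as recovered from the spacing of the FPKM values (fragments counted per gene, scaled to gene length and to the library's total). H2AC19 and its near-identical copy H2AC18 were listed at 0 FPKM in all 6 libraries, so the target checks neither the knockout nor the labels. All 6 simple epithelial markers listed were at 1 FPKM or more in all 6 libraries. By group means, sgControl first, KRT8 (233 and 304 FPKM), KRT18 (302 and 412), CDH1 and EPCAM were higher in sgH2AC19. KRT7 (243 and 214) and KRT19 (59.9 and 43.5) were lower. Of the 6 alveolar and airway markers only ABCA3 reached 1 FPKM in all 6 libraries (5.43 FPKM in sgControl and 5.09 in sgH2AC19). NKX2-1, NAPSA and the surfactant genes SFTPA1, SFTPB and SFTPC stayed below 1 FPKM. All 5 endothelial markers and all 6 leukocyte markers were below 1 FPKM in every library. The summed level of the 6 fibroblast markers was 3.29 to 3.76 FPKM in sgControl and 5.17 to 6.03 in sgH2AC19, most of it LUM (group means 2.81 and 3.97 FPKM). The means were 0.641 and 1.39 FPKM for COL1A1, 0.0301 and 0.115 for COL3A1, 0.00746 and 0.0492 for PDGFRB and near 0 for COL1A2. DCN went the other way, at 0.0347 FPKM in sgControl and 0.0176 in sgH2AC19. The part of these markers in the results was not tested. On the second principal component of all genes tested (18.2% of the variance) sgH2AC19 replicate 3 stood apart at −16.0, with replicates 1 and 2 at 8.09 and 8.32. For the carrier genes in which that library lay farthest apart, the log2 fold change without it is given as well. The labels do not say whether replicates came from separate cultures, and the p-values therefore reflect only how these libraries vary, possibly for technical reasons.

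A549 cells expressed some of these carriers strongly and others hardly at all. Of the 40 genes 20 reached 1 FPKM in all 6 libraries and entered the test, and 20 did not reach it in the 3 libraries required. In sgControl the most abundant were SLC38A2, a system A carrier of glutamine and alanine, at 216 ± 10.0 FPKM (SD, n = 3) and SLC7A5, the light chain that exchanges leucine and other large neutral amino acids, at 205 ± 14.1 FPKM. Their libraries overlapped, and they ranked 126 and 134 by level among the 12871 genes tested. Together they held 53.4% ± 0.532 of the FPKM summed over the 40 genes.

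Below them came the heavy chain gene SLC3A2 (87.7 FPKM), SLC38A1 (74.4), the glutamine exchanger gene SLC1A5 (71.1), the cystine and glutamate exchanger gene SLC7A11 (47.5) and the arginine and lysine carrier gene SLC7A1 (27.2), as means of sgControl. Only SLC38A1 and SLC1A5 overlapped as neighbours in that order. The other 13 genes tested had sgControl means between 1.53 FPKM for SLC43A2 and 9.58 for SLC38A10, and several neighbours among them overlapped. The FPKM summed over all 40 genes was 780 to 793 in sgControl and 762 to 802 in sgH2AC19, so the groups overlapped in the total.

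**Figure D1:**
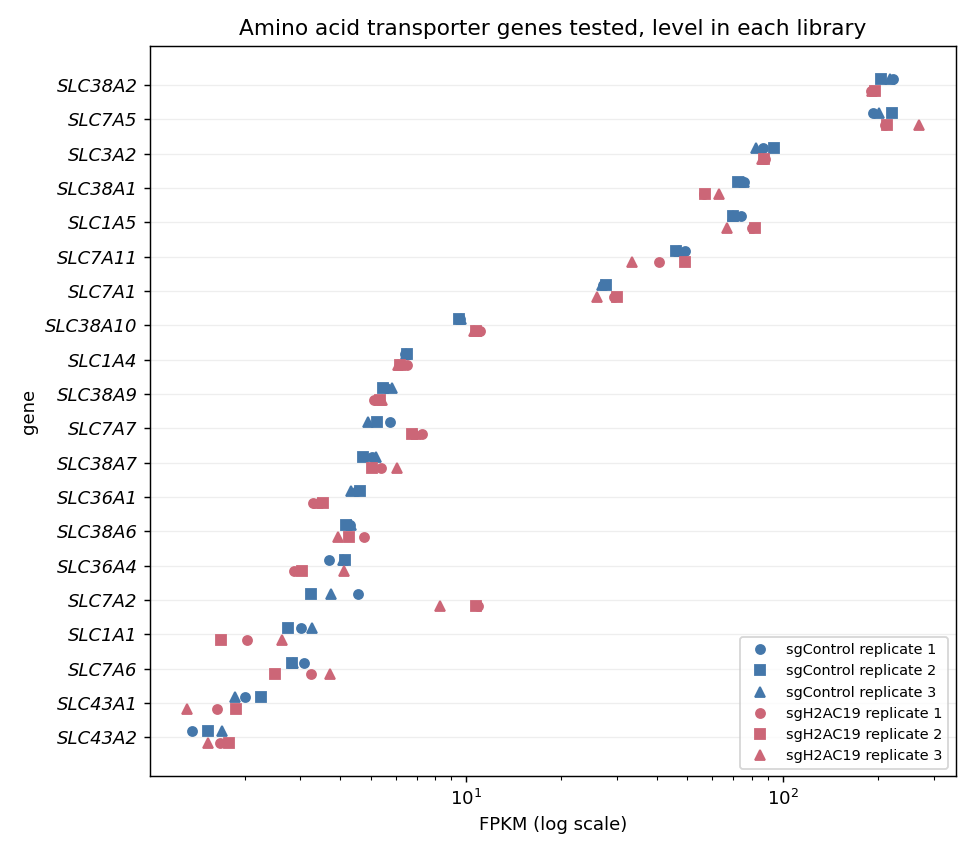
FPKM on a log axis of the 20 transporter genes tested, with 1 symbol per library, sgControl in blue above and sgH2AC19 in red below, in the order of the sgControl means. Levels run from SLC43A2 near 1.53 FPKM to SLC38A2 near 216 FPKM, and SLC7A2 is the gene whose groups lie farthest apart.

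Promoter words were read from RefSeq (GRCh38.p14), in windows from 250 bases before to 50 after an annotated start, because several of these genes are known targets of ATF4, the transcription factor of the amino acid response, or of NRF2, that of the oxidative stress response. The table held 53 windows for 31 of the 40 genes. It has no entry for SLC1A2, SLC38A3, SLC3A1, SLC43A3, SLC7A2, SLC7A3, SLC7A4, SLC7A11 and SLC7A13. The ATF4-type word TGATGNAA, on either strand, was held by 6 of the 31 genes and by 5 of the 18 among them that were tested for expression, against 4.46% of all genes in the table, 2.64% of the 9052 that were tested for expression, and 3.62% of all windows. Genes with several starts have several windows. The 5 tested genes are shown on the strand of the gene with the word in capitals, since they include a gene that fell (SLC38A1) and 4 that were not called.
SLC38A1: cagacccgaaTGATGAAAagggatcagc
SLC7A1: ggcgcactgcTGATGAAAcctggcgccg
SLC1A5: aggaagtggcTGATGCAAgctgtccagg
SLC1A4: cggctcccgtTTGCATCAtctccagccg
SLC3A2: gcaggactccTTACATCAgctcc
In SLC1A4 and SLC3A2 the word is on the opposite strand and is seen here as its reverse complement. The stretches lie at chr12:46266503-46266530 for SLC38A1, chr13:29595664-29595691 for SLC7A1 and chr19:46784894-46784921 for SLC1A5, all on the minus strand. Those of SLC1A4 and SLC3A2 lie at chr2:64989382-64989409 and chr11:62881726-62881748 on the plus strand.

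The NRF2-type word TGACNNNGC, on either strand, was held by 7 of the 31 genes and 6 of the 18, against 16.1% of all genes in the table, 19.4% of the 9052 and 13.3% of all windows. No stretch with 1 word overlapped a stretch with the other. Some of the stretches are shown, from the gene that rose (SLC7A7) and from the heavy chain gene SLC3A2 and its most abundant light chain gene SLC7A5, which were not called.
SLC7A7: cctctgggtcTGACCAGGCagtcccagct
SLC3A2: cgagggtgggTGACTCAGCgtcctccttc
SLC7A5: gcggggttccTGACGCAGCtgcgggcggc
They lie at chr14:22819861-22819889 (minus strand) for SLC7A7, chr11:62881652-62881680 (plus strand) for SLC3A2 and chr16:87869491-87869519 (minus strand) for SLC7A5. Whether any of these words is bound in A549 was not tested.

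Of the 20 genes tested, 3 rose and 3 fell in sgH2AC19 (adjusted p below 0.05 with limma on log2(FPKM + 1) values, by the Benjamini-Hochberg method over all 12871 genes tested). The share called, 30%, was near that of all genes tested, of which 23.1% were called, 12% up and 11% down. The median log2 fold change was 0.001 over the 20 genes and −0.005 over all genes tested, and the median size without sign was 0.160 and 0.130. The 3 libraries of one group lay above the 3 of the other for 8 of the 20 genes, against 43.2% of all genes tested. The genes that rose were SLC7A2, SLC7A7 and SLC38A10, and those that fell were SLC38A1, SLC36A1 and SLC38A2. In bulk RNA a change in the share of cells that express a gene and a change of its level per cell cannot be told apart. Without sgH2AC19 replicate 3 the count was 9, 4 up and 5 down, where 27% of all genes were called.

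**Figure D2:**
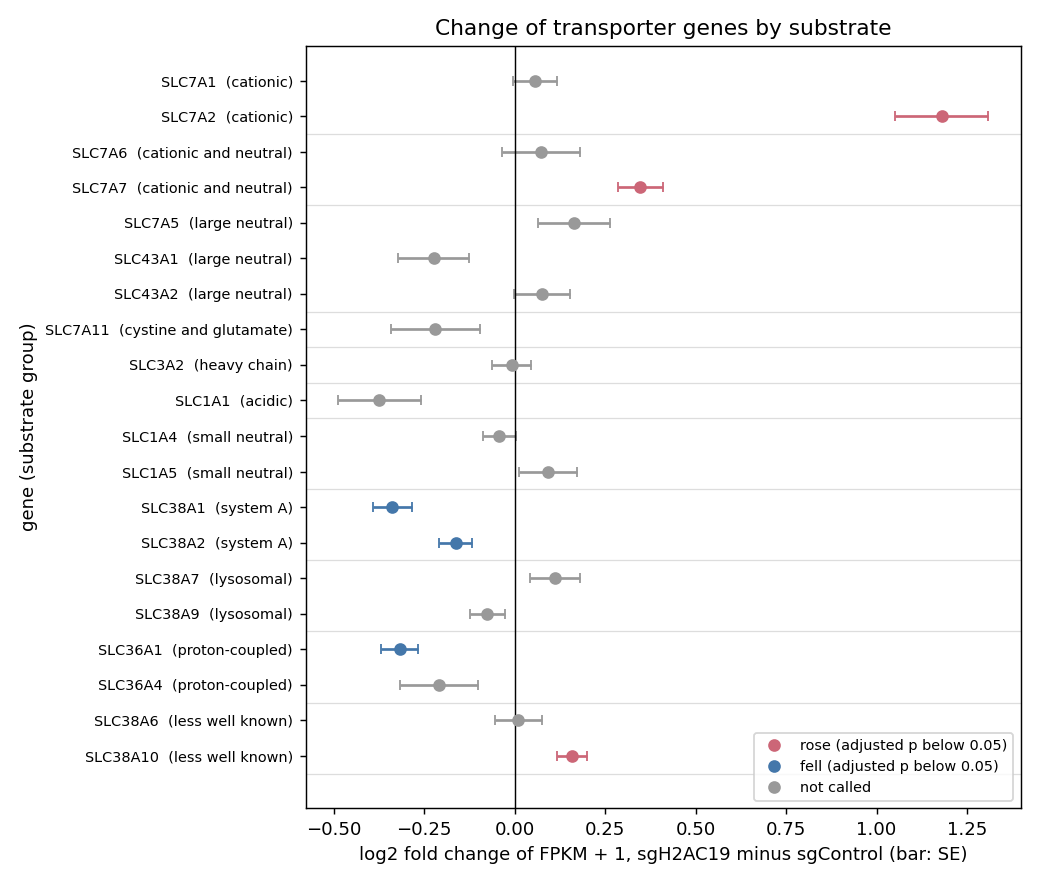
Log2 fold change of FPKM + 1, sgH2AC19 minus sgControl, of the 20 transporter genes tested, ordered by substrate, with bars for the SE of limma's fit and colour for the call. SLC7A2 lies at 1.18, and the other 19 genes lie between −0.37 (SLC1A1) and 0.35 (SLC7A7).

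The largest change was that of a cationic amino acid carrier. SLC7A2 (ENSG00000003989) encodes CAT2, which takes up arginine, lysine and ornithine. It was at 4.56, 3.23 and 3.75 FPKM in sgControl replicates 1 to 3 and at 10.9, 10.8 and 8.29 FPKM in sgH2AC19 replicates 1 to 3. Every sgH2AC19 library lay above every sgControl library, and replicate 3 was the lowest of its group. The log2 fold change was 1.18 (SE 0.128, limma adjusted p = 0.00155), and it was 1.30 without sgH2AC19 replicate 3. These values rest on 1010 to 1307 recovered reads in sgControl and 2490 to 3939 in sgH2AC19.

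SLC7A1, which encodes CAT1, the widely expressed carrier of the same substrates, was at 27.2 ± 0.441 and 28.4 ± 2.24 FPKM (SD, n = 3 each) and was not called (log2 fold change 0.06, SE 0.0613, limma adjusted p = 0.55; 0.12 and 0.058 without sgH2AC19 replicate 3). SLC7A2 thereby made up 14.4%, 10.4% and 12.3% of the FPKM summed over SLC7A1 and SLC7A2 in sgControl and 27.1%, 26.4% and 24.3% in sgH2AC19. The groups did not overlap in this share, and SLC7A1 remained the more abundant transcript in all 6 libraries. The third plasma membrane carrier of this branch, SLC7A3, did not exceed 0.043 FPKM, and SLC7A14, a lysosomal relative, was above 0 in 1 library only.

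**Figure D3:**
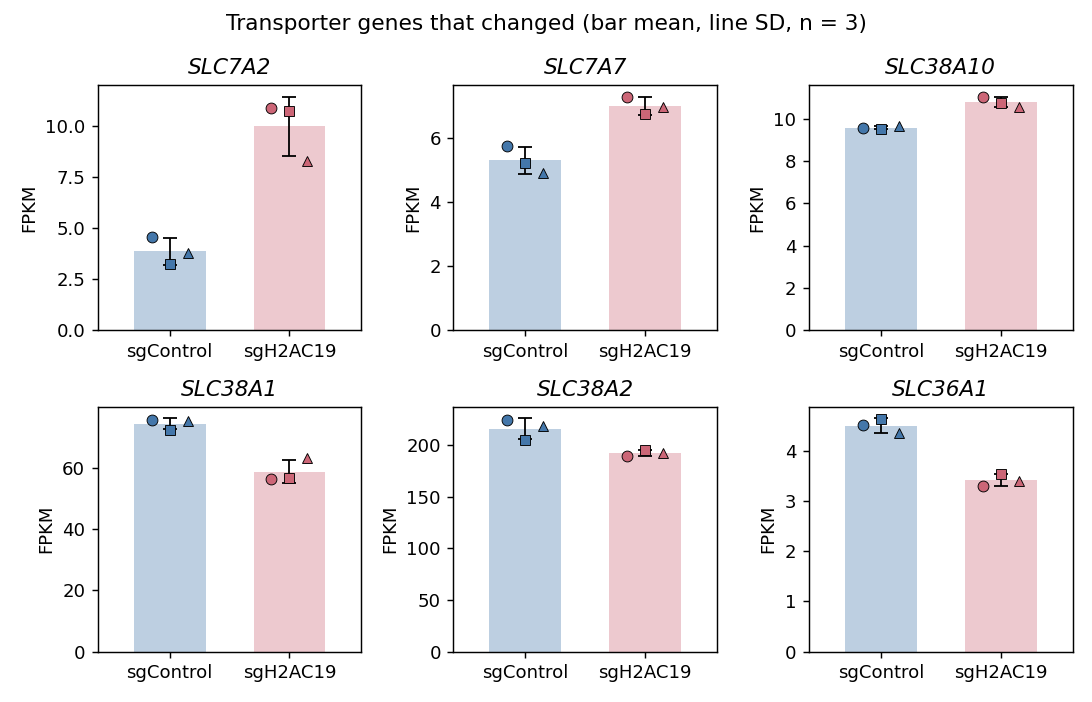
FPKM of the 6 transporter genes that changed, with bars for group means, lines for the SD (n = 3) and symbols for replicates 1 (circle), 2 (square) and 3 (triangle), each axis starting at 0. SLC7A2, SLC7A7 and SLC38A10 are higher and SLC38A1, SLC38A2 and SLC36A1 lower in sgH2AC19, with no overlap between groups in any of the 6.

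Among the light chains that pair with the heavy chain SLC3A2, SLC7A7 rose. It encodes y+LAT1, which releases arginine in exchange for glutamine or leucine, and lies on chromosome 14 from 22773222 to 22829820 on the minus strand (GRCh38, GENCODE 29). SLC7A7 was at 5.74, 5.22 and 4.91 FPKM in sgControl and at 7.29, 6.75 and 6.96 FPKM in sgH2AC19. There was no overlap between groups, and replicate 3 of sgH2AC19 lay between the other libraries of its group. The log2 fold change was 0.35 (SE 0.0623, limma adjusted p = 0.00918), and the gene stayed called whichever library was left out (adjusted p 0.0145 to 0.04).

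SLC7A6, which encodes the related exchanger y+LAT2, was at 3.09, 2.82 and 2.85 FPKM in sgControl and at 3.24, 2.49 and 3.71 FPKM in sgH2AC19. The sgH2AC19 libraries lay on both sides of the sgControl libraries, and the gene was not called (log2 fold change 0.07, SE 0.108, limma adjusted p = 0.668; −0.025 without sgH2AC19 replicate 3). Its neighbour SLC7A6OS runs on the opposite strand, and use of strand in counting is not given in the sources used here, so reads where the genes overlap cannot be told apart.

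The abundant light chain genes SLC7A5 and SLC7A11 were not called. SLC7A5 was at 194, 221 and 201 FPKM in sgControl and at 211, 213 and 269.7 FPKM in sgH2AC19. Replicates 1 and 2 of sgH2AC19 lay within the sgControl range and replicate 3 above it. Over all libraries the gene did not pass the test (log2 fold change 0.16, SE 0.1, limma adjusted p = 0.275), and its log2 fold change was 0.05 without replicate 3.

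SLC7A11, which encodes the cystine importer xCT, needed for glutathione synthesis, was at 49.4, 46.2 and 47.0 FPKM in sgControl and at 40.8, 49.3 and 33.5 FPKM in sgH2AC19. Replicate 2 of sgH2AC19 lay within the sgControl range, and replicates 1 and 3 lay below it. The gene was not called (log2 fold change −0.22, SE 0.124, limma adjusted p = 0.242), but it was called without sgH2AC19 replicate 2 (−0.35, adjusted p = 0.0443). With replicate 3 of that group left out instead, it was −0.081 (adjusted p = 0.489).

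The heavy chain gene SLC3A2 (4F2hc, CD98), on chromosome 11, was level between the groups. It was at 87.0, 93.9 and 82.2 FPKM in sgControl and at 88.1, 87.1 and 86.0 FPKM in sgH2AC19, and all sgH2AC19 libraries lay within the sgControl range (log2 fold change −0.01, SE 0.0539, limma adjusted p = 0.931). The FPKM summed over its 6 light chain genes was 2.90, 2.93 and 3.12 times that of SLC3A2 in sgControl and 2.98, 3.12 and 3.65 times in sgH2AC19. The groups overlapped in this ratio, and sgH2AC19 replicate 3, the library high in SLC7A5, was the highest. The other heavy chain gene, SLC3A1, did not exceed 0.017 FPKM.

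Both expressed system A genes fell. System A is the sodium-coupled uptake of glutamine, alanine and other small neutral amino acids. SLC38A1 (SNAT1) was at 75.5, 72.4 and 75.3 FPKM in sgControl and at 56.3, 56.8 and 63.1 FPKM in sgH2AC19. All sgH2AC19 libraries lay below all sgControl libraries, and replicate 3 was the nearest to them. The log2 fold change was −0.34 (SE 0.0537, limma adjusted p = 0.00592), and it was −0.39 without replicate 3.

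SLC38A2 (SNAT2), which cells are known to raise when amino acids run short, was at 224, 204 and 219 FPKM in sgControl and at 190, 195 and 192 FPKM in sgH2AC19. No library of one group reached the other, with sgControl replicate 2 the nearest to sgH2AC19. The log2 fold change was −0.16 (SE 0.045, limma adjusted p = 0.0396). It was no longer called if sgControl replicate 1 was left out (adjusted p = 0.135), nor without sgControl replicate 3 (0.129), sgH2AC19 replicate 1 (0.0954) or sgH2AC19 replicate 2 (0.0737), as well as in the fit to every gene above 0 FPKM (0.129).

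SLC38A1, SLC38A2 and SLC38A4 are neighbours on chromosome 12, all on the minus strand (GRCh38, GENCODE 29). SLC38A1 lies from 46183063 to 46270017, SLC38A2 from 46358189 to 46372867 and SLC38A4 from 46764761 to 46832408. The gaps are 88171 bases between SLC38A1 and SLC38A2 and 391893 bases between SLC38A2 and SLC38A4. SLC38A4, the third system A gene, did not exceed 0.0676 FPKM in any library and was not tested. The level of SLC38A2 was 2.96, 2.82 and 2.90 times that of SLC38A1 in sgControl and 3.37, 3.44 and 3.05 times in sgH2AC19, without overlap, so the fall was proportionally the greater for SLC38A1 in these libraries, a difference that was not tested.

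SLC36A1, which encodes the proton-coupled carrier PAT1 of glycine, alanine and proline at lysosomes and the plasma membrane, fell as well. Its place is the plus strand of chromosome 5, between 151437046 and 151492381 (GRCh38, GENCODE 29). SLC36A1 was at 4.52, 4.64 and 4.35 FPKM in sgControl and at 3.30, 3.55 and 3.40 FPKM in sgH2AC19. The groups did not overlap, and the log2 fold change was −0.32 (SE 0.0512, limma adjusted p = 0.00624; 0.00978 to 0.0331 with each library left out in turn). SLC36A2 and SLC36A3, next to it on chromosome 5, were above 0 in sgControl replicate 3 alone, where neither exceeded 0.023 FPKM.

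SLC36A4, a proline and tryptophan carrier gene, was at 3.69, 4.15 and 4.08 FPKM in sgControl and at 2.85, 3.04 and 4.11 FPKM in sgH2AC19. Replicates 1 and 2 lay below the sgControl libraries and replicate 3 among them. It was not called (log2 fold change −0.21, SE 0.108, limma adjusted p = 0.205), and it was called without sgH2AC19 replicate 3 (−0.33, adjusted p = 0.0137). With replicate 1 of that group left out instead, it was −0.13 (adjusted p = 0.449).

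Lysosomal SLC38 members were not called. SLC38A9, the arginine sensor upstream of the growth kinase complex mTORC1, had 5.63 ± 0.173 FPKM in sgControl and 5.29 ± 0.165 in sgH2AC19 (log2 fold change −0.08, SE 0.0484, limma adjusted p = 0.296), with groups that did not overlap. SLC38A7, which exports glutamine and asparagine from lysosomes, was at 5.00 ± 0.239 and 5.50 ± 0.508 FPKM (0.11, SE 0.0689, adjusted p = 0.275), with its highest value, 6.05 FPKM, in sgH2AC19 replicate 3, without which the log2 fold change was 0.053.

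SLC38A10, a less well known member on chromosome 17 from 81245000 to 81295547 on the minus strand, rose by a small amount. It was at 9.57, 9.52 and 9.64 FPKM in sgControl and at 11.1, 10.8 and 10.6 FPKM in sgH2AC19. The groups did not overlap, and the log2 fold change was 0.16 (SE 0.0419, limma adjusted p = 0.0342). Leaving out any library but sgH2AC19 replicate 3 ended the call (adjusted p up to 0.109, and 0.026 without that replicate), as did fitting every gene above 0 FPKM (0.053). SLC38A6 was at 4.28 ± 0.0738 and 4.32 ± 0.401 FPKM (0.01, SE 0.0647, adjusted p = 0.929). Its log2 fold change was 0.061 without sgH2AC19 replicate 3, its lowest library at 3.95 FPKM.

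None of the 3 SLC1 genes tested was called by limma, and 1 was lower at an unadjusted p under 0.05 (2438 of all 12871 genes tested were). That gene was SLC1A1, which encodes the glutamate, aspartate and cysteine carrier EAAT3. It was at 3.02, 2.73 and 3.27 FPKM in sgControl and at 2.04, 1.69 and 2.62 FPKM in sgH2AC19. The groups did not overlap, with sgH2AC19 replicate 3 the nearest to sgControl. The log2 fold change was −0.37 (SE 0.114, limma adjusted p = 0.0529). It was called without sgH2AC19 replicate 3 (−0.49, adjusted p = 0.0104) and in a fit of the recovered reads with voom (−0.53, adjusted p = 0.0198).

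SLC1A5 (ASCT2), the main glutamine exchanger of many tumour cells, was at 74.1, 69.6 and 69.7 FPKM in sgControl and at 80.3, 81.7 and 66.6 FPKM in sgH2AC19. Replicates 1 and 2 of sgH2AC19 lay above the sgControl libraries and replicate 3 below them. The log2 fold change was 0.09 (SE 0.08, limma adjusted p = 0.438), and without replicate 3 it was 0.19 and called (adjusted p = 0.0211). It was 0.053 without replicate 1 of sgH2AC19 (adjusted p = 0.711) and 0.040 without replicate 2 (0.775). SLC1A4 (ASCT1), which exchanges alanine, serine and cysteine, was at 6.47 ± 0.0458 and 6.26 ± 0.216 FPKM (−0.04, SE 0.0457, adjusted p = 0.542).

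The SLC43 genes tested were low and not called. SLC43A1 (LAT3), a leucine carrier, had 2.04 ± 0.199 FPKM in sgControl and 1.61 ± 0.286 in sgH2AC19 (log2 fold change −0.22, SE 0.098, limma adjusted p = 0.142; −0.14 without sgH2AC19 replicate 3). SLC43A2 (LAT4), its close relative, was at 1.53 ± 0.163 and 1.66 ± 0.125 FPKM (0.08, SE 0.078, adjusted p = 0.521). Both had groups that overlapped.

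The 20 genes below the filter include carriers of other tissues. SLC1A6, SLC7A4 and SLC7A13 were listed at 0 in all 6 libraries, and 14 of the 20, these 3 included, stayed below 0.05 FPKM in every library. The highest was SLC7A8, the light chain LAT2, at 0.196 to 0.281 FPKM with overlapping groups. SLC7A9, the cystine and cationic amino acid light chain known from kidney and gut, was at 0.0849, 0.0584 and 0.0569 FPKM in sgControl and at 0.269, 0.129 and 0.162 FPKM in sgH2AC19. Its groups did not overlap, but in the fit over all genes above 0 FPKM it was not called (unadjusted p = 0.0227, adjusted p = 0.189, limma). The smallest whole reads that give its values are 3 or 4 per sgControl library and 6 to 16 per sgH2AC19 library, so these counts are minima. The other untested genes included the D-serine carrier gene SLC7A10 (at most 0.161 FPKM), the purine base carrier gene SLC43A3 (at most 0.126) and the system N gene SLC38A5 (at most 0.0907). RefSeq lists a further SLC38 member, SLC38A12, under which name TMEM104 is meant, but the symbol table used here keeps the older name and the gene was not counted. TMEM104 was at 4.63 to 5.25 FPKM in sgControl and 4.15 to 4.57 in sgH2AC19 and was not called (limma adjusted p = 0.19).

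sgH2AC19 replicate 3 differed from replicates 1 and 2 in several of the carriers. On the log2(FPKM + 1) scale it lay above their mean by 0.37 for SLC36A4, 0.34 for SLC7A5 and SLC1A1 and 0.29 for SLC7A6. It lay below their mean for SLC7A11 (−0.41), SLC7A2 (−0.35), SLC1A5 (−0.28) and SLC43A1 (−0.25). For SLC38A2, SLC36A1 and SLC7A7 it lay within 0.01 of their mean. These 3 genes kept their calls without it, as did the other genes called, SLC7A2, SLC38A1 and SLC38A10. The part of this library's difference in any result was not tested beyond the fits without it.

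**Figure D4:**
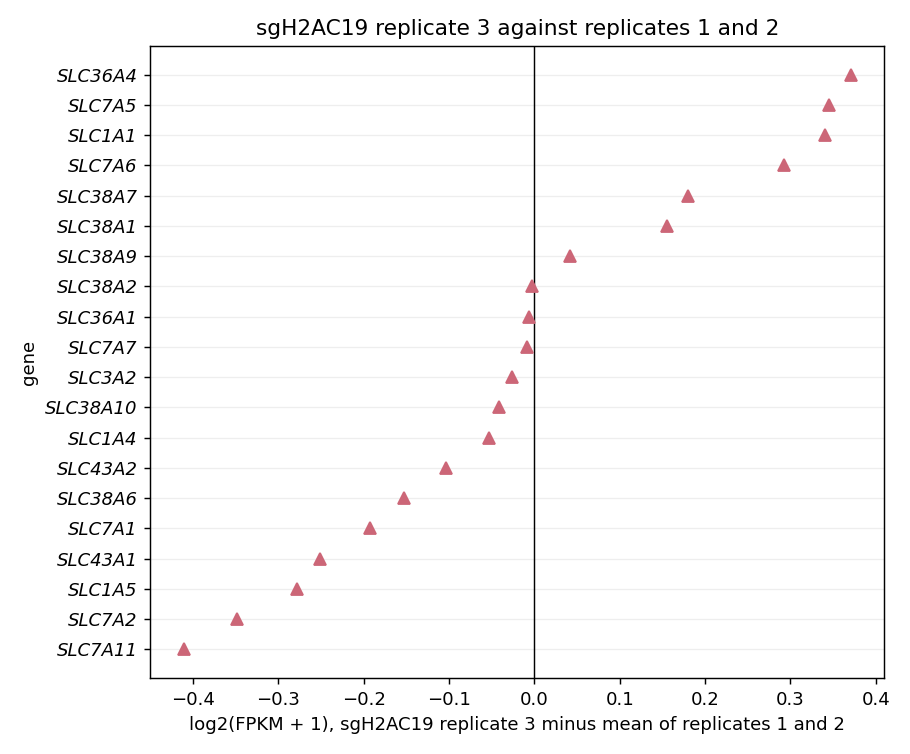
Difference on the log2(FPKM + 1) scale between sgH2AC19 replicate 3 and the mean of sgH2AC19 replicates 1 and 2 for the 20 transporter genes tested, in order of size. Values run from −0.41 (SLC7A11) to 0.37 (SLC36A4), with SLC38A2, SLC36A1 and SLC7A7 within 0.01 of 0.

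Amino acid carriers of other families, with the creatine carrier SLC6A8, were examined as a list of 24 genes, of which 10 were tested. Like the lists below, it was chosen with earlier results of these data known. Of these 3 fell and 0 rose by limma, the same by voom, which is 30% called against 23.1% of all genes tested (11% down). At an unadjusted p under 0.05, 6 fell and 1 rose, where 2438 fell and 2400 rose of all 12871 genes tested. The median log2 fold change was −0.159 (all genes tested −0.005). SLC15A4, a lysosomal carrier of histidine and small peptides, was at 8.16, 7.54 and 7.44 FPKM in sgControl and at 5.65, 5.87 and 5.75 FPKM in sgH2AC19 (log2 fold change −0.37, SE 0.0505, limma adjusted p = 0.00356). The sodium-coupled neutral carriers SLC6A15 and SLC6A17 fell from 3.27 to 2.39 FPKM (−0.34) and from 2.17 to 1.54 FPKM (−0.32). None of the 3 had overlapping groups. Both SLC6 genes lost their calls without sgControl replicate 1 (adjusted p = 0.0599 and 0.0598) or replicate 2 (0.0629 and 0.0885) and in the fit to every gene above 0 FPKM (0.0645 and 0.089). SLC6A17 lost it also without sgControl replicate 3 (0.0673) or sgH2AC19 replicate 2 (0.063).

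Genes through which amino acids act on mTORC1 moved both ways, with 3 up and 4 down of 34 tested (20.6% called against 23.1% of all genes tested, median log2 fold change −0.047). SESN2, a leucine-binding inhibitor of this pathway, was at 16.5, 18.1 and 15.4 FPKM in sgControl and at 12.7, 12.5 and 13.4 FPKM in sgH2AC19 (−0.35, SE 0.064, limma adjusted p = 0.00978). MTOR itself rose from 5.58 ± 0.0993 to 6.74 ± 0.0608 FPKM (0.23, adjusted p = 0.0103). RRAGA, a Rag GTPase that recruits mTORC1 to lysosomes, and FLCN, which acts on the Rag GTPases, were at −0.36 and −0.28. Both lost their calls without sgControl replicate 2 (adjusted p = 0.059 and 0.0961) or 3 (0.0564 and 0.0647) and in the fit to every gene above 0 FPKM (0.065 and 0.0995), and FLCN also without sgControl replicate 1 (0.0839).

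Enzymes that use the carried amino acids were called in 5 of 32 tested genes (15.6%, against 23.1% of all genes tested), 3 up and 2 down. CHAC1, a glutathione-degrading enzyme induced by ATF4, changed most among those named. It was at 16.5, 13.1 and 14.8 FPKM in sgControl and at 9.42, 7.17 and 7.87 FPKM in sgH2AC19, without overlap (log2 fold change −0.79, SE 0.109, limma adjusted p = 0.00362). BCAT2, which starts the breakdown of branched-chain amino acids, fell by 0.27 on the log2 scale, while DBT, a subunit of the next enzyme of that route, rose by 0.28, as did the serine and glycine enzyme gene SHMT1. Without sgControl replicate 2 SHMT1 was no longer called (adjusted p = 0.0528). DBT lost it without any sgControl replicate (0.0743, 0.0605 and 0.0506 for replicates 1 to 3) and in the fit to every gene above 0 FPKM (0.0684).

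Regulators of carrier transcription were listed as transcription factors together with signalling proteins such as EIF2AK2, KEAP1 and TRIB3. Of the 18 tested genes 8 were called (44.4%, against 23.1% of all genes tested, 12% up and 11% down), 2 up and 6 down. Their median log2 fold change was −0.125. The list was chosen with earlier results of these data known, so its share cannot be weighed against that of all genes. TRIB3, a pseudokinase induced by ATF4, was at 83.6, 86.2 and 79.1 FPKM in sgControl and at 120, 121 and 103 FPKM in sgH2AC19 (0.46, SE 0.0706, limma adjusted p = 0.00519). EPAS1, the hypoxia factor HIF-2α, rose by 0.36, and NFE2L2, which encodes NRF2, and BACH1, a repressor at the same elements, fell by 0.30 and 0.44. BACH1 lost its call in the fit to every gene above 0 FPKM (adjusted p = 0.0518) and NFE2L2 without sgControl replicate 1 (0.0503). ATF4, named here after its values were seen because its word was searched, was at 167 ± 5.05 and 149 ± 2.19 FPKM (−0.16, SE 0.0393, adjusted p = 0.0257). Leaving out any library but sgH2AC19 replicate 3 ended this call (adjusted p up to 0.101, and 0.0312 without that replicate), as did fitting every gene above 0 FPKM (0.0748).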

How the data were processed

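RNA from A549 cells was made into mRNA-seq libraries with a SMARTer kit, per the labels' protocols. The values are FPKM computed by the authors and deposited as 1 table with 1 column per library, per the file headers. Aligner, counter and annotation are not stated in any source used here. The submitters' processing notes name GRCm38 and mm10, both of them mouse builds, but the 62700 gene IDs all matched human Ensembl genes. The sgNC columns were read as sgControl and the sgH2AC columns as sgH2AC19, with their numbers as replicates.

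A gene was tested where 3 or more libraries reached 1 FPKM. Values were taken as log2(FPKM + 1) and compared with limma 3.58.1 (R 4.3.3), two-sided, with a mean-variance trend. P-values were adjusted by Benjamini and Hochberg's method over all 12871 genes tested, and 0.05 was the threshold. This scale understates changes of low genes, and FPKM do not correct for composition. Read totals came from the value of 1 read at GENCODE 29 exon lengths, and 12869 of the genes tested gave whole reads within 0.001 at that length or the smallest that gave them. The steps were tested on simulated data. Alternatives were a pseudocount of 0.1, other filters, median-ratio and upper-quartile scaling, the replicate number as a block, voom on recovered reads and each library left out. The rule for named genes takes H2AC19, H2AC18, every tested member and up to 4 called genes of each of the 4 lists, by smallest adjusted p. Members and lists were chosen with earlier results of these data known. Python 3.11.15, numpy 2.4.6, pandas 2.3.3 and matplotlib 3.10.9 were used.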

Additional observations from a re-analysis of the deposited data

How the results depend on the processing

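The number of transporter genes called was 4 to 9 when each library was left out in turn and 4, 5, 6 or 7 under the other alternatives, against 6. Over all genes the count was 1553 when every gene above 0 FPKM was tested and 1513 to 3429 without 1 library (the highest without sgH2AC19 replicate 3), against 2967. SLC7A2, SLC7A7, SLC38A1 and SLC36A1 were called in all 14 fits, the main one included. Leaving out a library turned the sign of 3 genes that were not called: SLC38A6 (−0.0016 without sgControl replicate 2 and −0.047 without sgH2AC19 replicate 1, in a range of −0.047 to 0.061), SLC3A2 (0.042 without sgControl replicate 2 and 0.0005 without sgH2AC19 replicate 3, in a range of −0.053 to 0.042) and SLC7A6 (−0.025 without sgH2AC19 replicate 3, in a range of −0.025 to 0.19). Neither scaling moved the median log2 fold change of all genes by more than 0.0022. With the replicate number as a block 2729 genes and 5 transporter genes were called: SLC38A2 (adjusted p = 0.0706) and SLC38A10 (0.0704) were lost, SLC1A1 (0.0247) was gained, and SLC6A17 of the other families (0.0563) was lost. The numbers do not pair the samples by design. Deviations of same-numbered libraries correlated at 0.0524, 0.0346 and 0.0602, each the highest for its library, which is a hint from the data only. Depth limits the genes below the filter. For several of them fewer than 10 reads per library were recovered, a minimum where the annotated length did not give whole reads.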
